A study of Homo sapiens with 15 samples.

Results

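The quantity described here is the difference between a pair of differences. Molm-13 leukemia cells were treated with cytarabine at 0.5 or 1 µM, and at each dose some cultures were switched to the drug FL-Fc-DM1. For each gene, the log2 change seen on that switch after 0.5 µM was subtracted from the log2 change seen after 1 µM. A positive value means that the change with FL-Fc-DM1 was more upward, or less downward, after the higher dose. A value of 1 means that the ratio between the FL-Fc-DM1 and cytarabine libraries was 2-fold higher at 1 µM. The contrast used 12 of the 15 libraries and was computed for the 12355 of 20375 genes in the deposited table that passed a filter on low counts.

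Molm-13 is an established human acute myeloid leukemia line of monocytic type that carries an internal tandem duplication of FLT3 and a KMT2A fusion. All groups had 3 libraries and 4 days of culture. One pair of groups stayed on cytarabine, at 0.5 or at 1 µM, for all 4 days. The other pair had the same doses for 3 days, after which cytarabine was removed and 1 nM FL-Fc-DM1 was given for 24 hours. Each switch was therefore a withdrawal of cytarabine and an addition of FL-Fc-DM1 together, and the effects of these cannot be told apart in these libraries. An untreated control group of 3 libraries entered the fit and is shown for reference. None of the libraries analysed here came from cells given FL-Fc-DM1 without cytarabine before it. What the letters of FL-Fc-DM1 stand for is not written in the labels. FL often abbreviates the ligand of FLT3, Fc the constant part of an antibody, and DM1 the maytansinoid mertansine. Titles, cell line field and design text name Molm-13 throughout, but a treatment note on the FL-Fc-DM1 groups speaks of THP-1 cells. The labels do not state whether replicate libraries derive from separate cultures, so p-values measure the spread between these libraries, which may be technical. Below, the 0.5 µM arm and the 1 µM arm each mean the cytarabine libraries and the FL-Fc-DM1 libraries of that dose.

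Cytarabine is a cytidine analog that is built into DNA and stalls replication forks, which holds cells in S phase. Cells that leave S phase express a late wave of genes for the spindle, the kinetochore and cyclin B, and most of these messages are low outside G2 and mitosis. Maytansinoids bind tubulin and block microtubule assembly, and cells that reach mitosis with such a drug are held there. Monocytic leukemia cells that stop dividing often gain genes of mature monocytes, among them lysozyme, versican and MHC class II.

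The libraries summed to between 10.9 and 17 M estimated counts (M, 1e6), and the 3 libraries of the FL-Fc-DM1 group after 1 µM were the shallowest, at 10.9 to 11.4 M. That group also spread most, with a median standard deviation over genes of 0.12 on the log2 CPM scale (CPM, counts scaled to a library of 1 M), against 0.10 for cytarabine 1 µM and 0.068 to 0.079 for the other 3 groups. The first principal component of the 12 treated libraries held 35.0% of the variance and set FL-Fc-DM1 apart from cytarabine, and the second held 19.2% and set the doses apart. Defining markers of other cell types were low: the summed B cell markers stayed at or below 1.63 CPM in every treated library and the erythroid marker EPOR between 5.68 and 7.30 CPM. The summed T and NK cell markers were 55.0 to 73.5 CPM, most of it from NKG7 (50.4 to 63.8 CPM), and PECAM1 made up nearly all of the stroma and epithelium markers.

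The switch to FL-Fc-DM1 gave broadly similar changes in both arms, and a limited set of genes differed between them. In edgeR's quasi-likelihood test with Benjamini-Hochberg adjustment at 0.05, 379 genes were called in the difference of changes, 3.07% of those tested. Of these, 264 were positive (2.14%) and 115 negative (0.931%), and 1907 genes had an unadjusted p under 0.05. Differences were mostly modest, since 17 called genes reached 2-fold (0.138%). The median over the called positive genes was 0.46 and over the called negative genes -0.33. Over all genes tested it was 0.0083, with a median absolute difference of 0.12 and a median SE of 0.12. For comparison, the change with FL-Fc-DM1 was called for 5528 genes after 0.5 µM (44.7%) and for 5646 after 1 µM (45.7%). Among the genes called in both arms, 4020 had the same sign and 37 had opposite signs together with a called difference (0.299%). The excess of positive over negative calls was smaller without the control group. A fit of the 4 treated groups alone called 262 genes in the difference, 154 positive and 108 negative.

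The largest differences in size belonged to weakly expressed genes. HYKK, at a log2 difference of -4.18 (edgeR adjusted p = 0.0293), and ANGPT1, at -2.47 (edgeR adjusted p = 0.00122), stayed below a mean of 10 CPM in every treated group and were picked out here after their values were seen. The genes described further on, except SOCS1, were chosen among those that reached 10 CPM in at least 1 treated group.

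Several routes led to a positive difference. In 102 of the 264 positive genes the change was called only after 1 µM, where the gene rose. Another 66 rose in both arms and 50 fell after 0.5 µM with no call after 1 µM. Of the remaining genes, 24 fell after 0.5 µM and rose after 1 µM, and 22 fell in both arms. Among the 115 negative genes, 29 fell in both arms, 26 fell only after 1 µM, 24 rose in both, 23 rose only after 0.5 µM and 13 rose after 0.5 µM and fell after 1 µM. Here "only" describes where each arm's own test made a call, and the difference between arms is the contrast itself.

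The counts moved with single libraries. Without replicate 3 of cytarabine 0.5 µM there were 175 positive calls, and without replicate 1 or 2 of FL-Fc-DM1 after 0.5 µM there were 151 and 159. Without replicate 3 of FL-Fc-DM1 after 1 µM there were 186 negative calls. The 2-fold count was 11 without replicate 2 of FL-Fc-DM1 after 0.5 µM, and 29 and 31 without replicates 1 and 3 of FL-Fc-DM1 after 1 µM. Opposite changes numbered 18 without replicate 1 of cytarabine 0.5 µM, and 23 and 21 without replicates 2 and 3 of FL-Fc-DM1 after 0.5 µM.

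**Figure D1:**
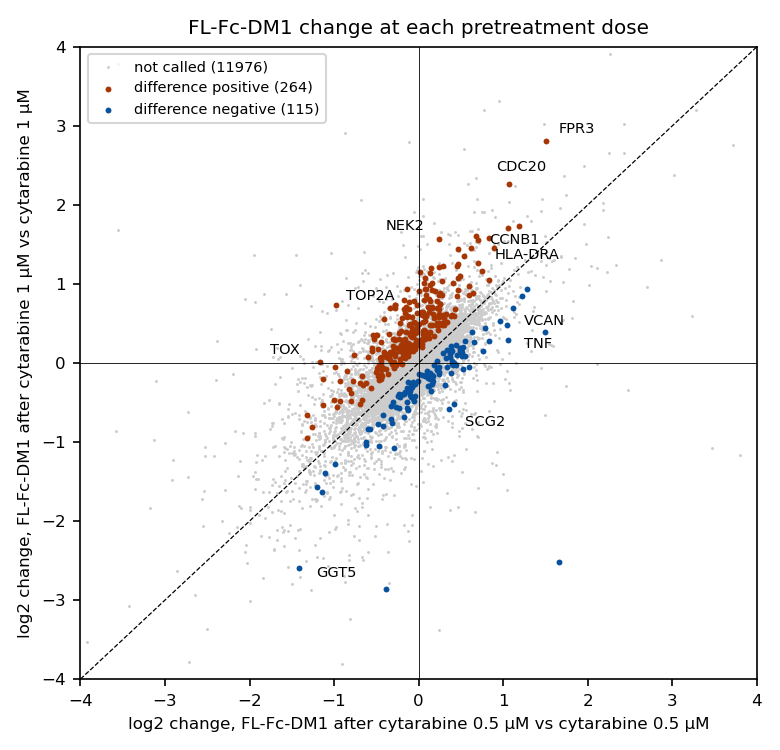
Log2 change with FL-Fc-DM1 against continued cytarabine after 0.5 µM (x axis) and after 1 µM (y axis). Each point is 1 of the 12355 genes tested (32 lie outside the axes, which end at 4 and -4), with the 264 positive and 115 negative calls coloured and the dashed line marking equal change: most genes lie near the line, and CDC20, CCNB1 and TOP2A lie above it while TNF and VCAN lie below it.

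Genes of mitosis were frequent on the positive side. Of 35 genes listed for mitosis, all tested, 25 were called positive and 0 negative, against 2.14% of all genes, and all 35 had a value above 0. Their median difference was 0.68, ranging from 0.13 to 1.20, beside 0.0083 over all genes. After 0.5 µM, 19 of the 35 rose with FL-Fc-DM1 (22% of all genes did) and 0 fell, with a median change of 0.24. After 1 µM, 34 rose (23.5% of all genes) and 0 fell, with a median of 0.85. In a bulk library, fewer mitotic cells and less of these messages per cell cannot be told apart.

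Summed over the 35 mitosis genes, expression was 965 ± 25.8 CPM (SD, n = 3) on cytarabine 0.5 µM and 796 ± 15.3 CPM on 1 µM. After FL-Fc-DM1 it was 1118 ± 12.8 CPM and 1464 ± 38 CPM, and untreated cells had 3102 ± 22.9 CPM. The order of the doses was therefore reversed: while on cytarabine the higher dose went with the lower sum, after the switch the higher dose went with the higher sum, and the libraries of the 4 treated groups did not overlap. All of them stayed below the control libraries.

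Gene by gene, 21 of the 35 were lower at 1 µM than at 0.5 µM while on cytarabine (10.3% of all genes were) and 26 were higher at 1 µM after FL-Fc-DM1 (14.3% of all genes). Over all genes, 9.08% were higher at 1 µM on cytarabine, as 0 of the 35 were. The fall on cytarabine and the rise after FL-Fc-DM1 were both called for 15 of the 35. Over all genes tested, 45 crossed in this way (0.364%) and 9 in the reverse way (0.0728%).

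CDC20, the activator of the anaphase-promoting complex, measured 11.1, 11.4 and 12.3 CPM on cytarabine and 25.2, 26.7 and 21.2 after FL-Fc-DM1 in the 0.5 µM arm. In the 1 µM arm it measured 6.61, 6.71 and 6.75 CPM on cytarabine and 30.5, 35.8 and 30.3 after FL-Fc-DM1, and 62.2, 54.7 and 57.5 CPM in the control libraries. No groups overlapped, and the 1 µM arm held both the lowest and the highest treated libraries. CDC20 rose 2.09-fold after 0.5 µM and 4.82-fold after 1 µM, a difference of 1.2 ± 0.15 (edgeR adjusted p = 2.89e-05). Here and below, differences and changes are on the log2 scale and ± is their SE.

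Cyclins B1 and B2, the partners of CDK1 at entry into mitosis, had the same pattern. CCNB1 was at 25.6, 26.8 and 26.9 CPM on cytarabine and 41.9, 42.1 and 43.1 after FL-Fc-DM1 in the 0.5 µM arm. With the higher dose CCNB1 stood at 18.9, 21.4 and 17.3 CPM on cytarabine and 63.3, 58.4 and 54.2 after FL-Fc-DM1, and the 4 treated groups did not overlap. The difference was 0.93 ± 0.10 (edgeR adjusted p = 3.38e-06), made of a 1.6-fold rise after 0.5 µM and a 3.06-fold rise after 1 µM. For CCNB2 the values were 15.6, 17.1 and 16.6 CPM on cytarabine and 18.4, 18.1 and 18.3 after FL-Fc-DM1 in the 0.5 µM arm. They were 14.2, 11 and 9.94 CPM on cytarabine and 23, 30.6 and 28.1 after FL-Fc-DM1 in the 1 µM arm, again with no overlap. CCNB2 rose 2.3-fold after 1 µM, its change of 0.15 ± 0.11 after 0.5 µM was not called (edgeR adjusted p = 0.274), and the difference was 1.05 ± 0.16 (edgeR adjusted p = 1.85e-04).

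NEK2, a centrosomal kinase that splits the centrosomes, had the largest positive difference among genes of at least 10 CPM. Its libraries read 5.48, 6.77 and 7.63 CPM on cytarabine and 7.61, 7.82 and 8.11 after FL-Fc-DM1 in the 0.5 µM arm. Those of the 1 µM arm read 5.02, 4.87 and 3.96 CPM on cytarabine and 14.8, 13.7 and 13.1 after FL-Fc-DM1. Its libraries with FL-Fc-DM1 after 1 µM lay above all other treated libraries, while the groups of the 0.5 µM arm overlapped. The difference was 1.33 ± 0.20 (edgeR adjusted p = 1.60e-04), a 2.51-fold higher ratio after 1 µM.

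TOP2A, the topoisomerase that untangles sister chromatids, gave 165, 176 and 158 CPM on cytarabine and 158, 155 and 148 after FL-Fc-DM1 in the 0.5 µM arm. It gave 132, 143 and 126 CPM on cytarabine and 224, 214 and 206 after FL-Fc-DM1 in the 1 µM arm. After 0.5 µM the FL-Fc-DM1 libraries lay at or below the cytarabine libraries, and after 1 µM they lay above every other treated library. The change after 0.5 µM was -0.11 ± 0.047 (edgeR adjusted p = 0.0522), the change after 1 µM was 0.69 ± 0.047 (edgeR adjusted p = 8.05e-12) and the difference was 0.8 ± 0.066 (edgeR adjusted p = 7.60e-08).

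Spindle genes behaved likewise. ASPM, a spindle pole protein, had a difference of 1.01 ± 0.11 (edgeR adjusted p = 2.05e-06). HMMR, a spindle protein that also binds hyaluronan, had 0.96 ± 0.11 (edgeR adjusted p = 1.05e-05), and DLGAP5, which stabilizes kinetochore fibers, had 0.97 ± 0.16 (edgeR adjusted p = 4.23e-04). CKAP2L, another spindle protein, had 1.14 ± 0.17 (edgeR adjusted p = 1.60e-04), with changes of 0.01 after 0.5 µM and 1.16 after 1 µM. HJURP, the chaperone that loads the centromeric histone CENPA, had 1.08 ± 0.18 (edgeR adjusted p = 4.18e-04). In each of these 5 genes the 3 FL-Fc-DM1 libraries after 1 µM were above all other treated libraries.

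CDCA2, which brings a phosphatase to anaphase chromatin, was among the genes that moved in opposite directions. It had 24.5, 25.2 and 26.2 CPM on cytarabine and 22.2, 20.7 and 22 after FL-Fc-DM1 in the 0.5 µM arm, where it fell. It had 21.1, 20.6 and 24.9 CPM on cytarabine and 31.4, 29.9 and 33.2 after FL-Fc-DM1 in the 1 µM arm, where it rose. The libraries of FL-Fc-DM1 after 1 µM were again above all other treated libraries, and the difference was 0.73 ± 0.11 (edgeR adjusted p = 2.44e-04). FAM72B and FAM72D, near-identical copies whose counts may be split between them, had differences of 1.02 ± 0.14 (edgeR adjusted p = 6.78e-05) and 0.98 ± 0.20 (edgeR adjusted p = 0.00427).

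**Figure D2:**
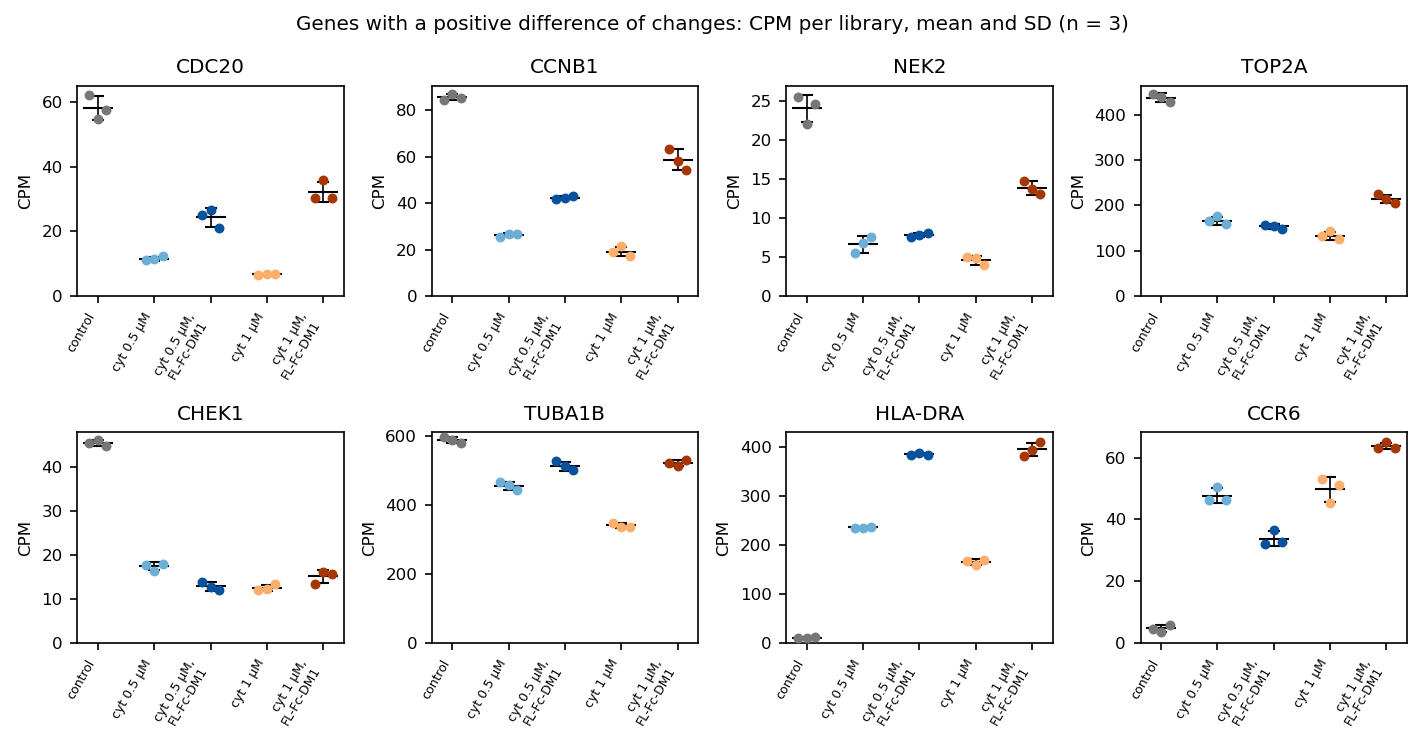
CPM per library (points) with mean and SD (n = 3, bars) in the 5 groups for 8 genes with a positive difference, each panel with its own axis from 0. For CDC20, CCNB1, NEK2 and TOP2A the FL-Fc-DM1 libraries after 1 µM are the highest treated libraries and the cytarabine 1 µM libraries the lowest, while TUBA1B and HLA-DRA are low on cytarabine 1 µM and level between the FL-Fc-DM1 groups.

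Promoters of late cell cycle genes are known for a short element called the CHR, with the core TTTGAA, and for CCAAT boxes bound by NF-Y. Both were searched on either strand (as TTTGAA or TTCAAA, and as CCAAT or ATTGG) in windows of 300 bases, 250 before to 50 after the RefSeq start (GRCh38.p14). These motifs and the 4 promoters printed were chosen after the values were seen, and the 4 are shown because they belong to genes described above. Each line gives the 150 bases before the start, 5′ to 3′ in the direction of the gene, with matches to either motif in capitals.
CDC20, chr1:43358831-43358980, plus strand: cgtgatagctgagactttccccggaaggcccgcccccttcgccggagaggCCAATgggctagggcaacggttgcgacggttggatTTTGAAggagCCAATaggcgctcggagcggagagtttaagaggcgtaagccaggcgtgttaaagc
CCNB2, chr15:59104996-59105145, plus strand: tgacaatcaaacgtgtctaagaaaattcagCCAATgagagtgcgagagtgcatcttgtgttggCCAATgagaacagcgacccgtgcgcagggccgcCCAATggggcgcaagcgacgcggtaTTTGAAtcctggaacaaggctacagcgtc
CKAP2L, chr2:112764610-112764759, minus strand: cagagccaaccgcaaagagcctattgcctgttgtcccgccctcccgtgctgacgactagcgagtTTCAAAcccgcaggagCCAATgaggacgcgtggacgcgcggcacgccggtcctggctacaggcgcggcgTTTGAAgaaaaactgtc
CCNB1, chr5:69167000-69167149, plus strand: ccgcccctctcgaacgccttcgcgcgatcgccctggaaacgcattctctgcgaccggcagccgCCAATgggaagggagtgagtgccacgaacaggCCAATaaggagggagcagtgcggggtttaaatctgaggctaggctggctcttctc

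The CDC20 stretch holds TTTGAA between a pair of CCAAT boxes, CCNB2 holds 3 CCAAT boxes upstream of TTTGAA, and CKAP2L holds the element in both orientations. In CCNB1 these letters occur only as 2 CCAAT boxes. Only the exact CHR core was searched, so a stretch without a match is not shown to lack the element. Of the 31 mitosis genes with a promoter in the table, 22 held the CHR core (71.0%) and 16 held at least 2 CCAAT boxes (51.6%). At least 2 CCAAT boxes occurred in 11.3% of all promoters and in 13.9% of those of tested genes. Of the 203 called positive genes with a promoter, 59 held the core (29.1%), and of the 86 called negative genes 11 did (12.8%). Over all 27305 promoters in the table the share was 15.4%, and over the 9934 tested genes with a promoter it was 10.3%. The CHR core and at least 2 CCAAT boxes together occurred in 13 mitosis promoters (41.9%), 24 called positive (11.8%), 0 called negative and 1.83% of all promoters. The called positive genes include 25 of the mitosis list, so the shares of these sets partly repeat each other. The motifs were also frequent in a list of MHC class II genes, where 5 of 12 promoters held the core (41.7%), 7 held at least 2 CCAAT boxes (58.3%) and 3 held both (25%). A match is a run of letters in a window and not a measured binding site.

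Genes of DNA replication also had mostly positive values, of smaller size. Of 38 listed and tested, 7 were called positive and 0 negative (all genes, 2.14% and 0.931%), and 37 had a value above 0, with a median of 0.28. After 0.5 µM, 5 rose and 4 fell with FL-Fc-DM1 (median -0.0078), where 22% of all genes rose and 22.8% fell. After 1 µM 20 rose and 1 fell (median 0.28), where 23.5% of all genes rose and 22.2% fell. GINS4, a subunit of the replicative helicase, measured 31.9, 31.6 and 32.4 CPM on cytarabine and 36.6, 35.2 and 35 after FL-Fc-DM1 in the 0.5 µM arm. In the 1 µM arm it measured 26.8, 26.1 and 25.2 CPM on cytarabine and 41.8, 42.9 and 42.4 after FL-Fc-DM1, with no overlap among the treated groups. Its difference was 0.55 ± 0.09 (edgeR adjusted p = 4.74e-04). POLE, the catalytic subunit of the leading-strand polymerase, had 0.47 ± 0.11 (edgeR adjusted p = 0.0188), MCM3, a helicase subunit, 0.27 ± 0.064 (edgeR adjusted p = 0.0155) and RFC3, of the clamp loader, 0.41 ± 0.10 (edgeR adjusted p = 0.0187). The POLE call ended without replicate 2 of cytarabine 0.5 µM (adjusted p = 0.0624) or replicate 3 of FL-Fc-DM1 after 0.5 µM (0.0786). The MCM3 call ended without replicate 3 of cytarabine 0.5 µM (0.0576) or replicate 1 or 2 of FL-Fc-DM1 after 0.5 µM (0.0939 and 0.0586). It also ended in a fit of the 4 treated groups alone (0.0572). The RFC3 call was lost in 7 of 21 alternative analyses, 5 of them omissions of 1 library, with adjusted p up to 0.0855. The count of 7 was 3 without replicate 1 or 2 of cytarabine 0.5 µM, 2 without replicate 1 or 2 of FL-Fc-DM1 after 0.5 µM and 3 without its replicate 3. It was also 2 in a fit of the 4 treated groups alone and 3 with limma voom.

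Recombination, Fanconi and replication checkpoint genes were called positive in 7 of 23 (2.14% of all genes) and negative in 0, with a median of 0.37. After 0.5 µM 9 of the 23 fell with FL-Fc-DM1 (22.8% of all genes) and 1 rose (22%). After 1 µM 11 rose (23.5% of all genes) and 0 fell (22.2%). CHEK1, the kinase of the replication checkpoint, had 17.8, 16.3 and 18 CPM on cytarabine and 13.9, 12.7 and 11.9 after FL-Fc-DM1 in the 0.5 µM arm, where it fell. It had 12, 12.2 and 13.3 CPM on cytarabine and 13.4, 16.1 and 15.7 after FL-Fc-DM1 in the 1 µM arm, where it rose, and 45.4, 46.1 and 44.8 CPM in the control libraries. The FL-Fc-DM1 groups overlapped with each other, while within each arm the cytarabine and FL-Fc-DM1 libraries did not overlap. The difference was 0.71 ± 0.14 (edgeR adjusted p = 0.00267). BRCA1 (-0.17 after 0.5 µM and 0.27 after 1 µM), BRCA2 (-0.27 and 0.3), both of homologous recombination, and FANCD2 (-0.19 and 0.29), of crosslink repair, also fell after the lower and rose after the higher dose. Their differences were 0.45 ± 0.085 (edgeR adjusted p = 0.00238), 0.57 ± 0.12 (edgeR adjusted p = 0.00546) and 0.48 ± 0.10 (edgeR adjusted p = 0.00417).

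Replication-dependent histone genes had a median difference of 0.32 over 50 tested, of which 1 was called (3.07% of all genes). That gene, H2AC11, had 0.7 ± 0.18 (edgeR adjusted p = 0.0293), and its call was lost in 7 of 21 alternative analyses, 6 of them omissions of 1 library, with adjusted p up to 0.112. Most histone messages lack a poly(A) tail, the libraries were made from polyadenylated RNA, and 37 of the 50 were under 10 CPM in every treated group. Histone genes are also near-identical copies, so single members are uncertain.

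Tubulins, the proteins that maytansinoids bind, were called positive in 3 of 15 tested (2.14% of all genes) and negative in 0, with a median of 0.090. TUBA1B read 466, 459 and 442 CPM on cytarabine and 527, 513 and 501 after FL-Fc-DM1 in the 0.5 µM arm. It read 349, 337 and 336 CPM on cytarabine and 522, 514 and 531 after FL-Fc-DM1 in the 1 µM arm. The cytarabine libraries were lower at 1 µM and did not overlap, whereas the FL-Fc-DM1 groups overlapped and differed by 0.03 ± 0.032 (edgeR adjusted p = 0.599). The difference of changes was 0.44 ± 0.045 (edgeR adjusted p = 1.71e-06). TUBB (0.27 ± 0.045, edgeR adjusted p = 6.06e-04) and TUBA1A (0.58 ± 0.091, edgeR adjusted p = 3.28e-04) were also lower at 1 µM on cytarabine, with dose differences of -0.24 and -0.47, while between the FL-Fc-DM1 groups they had 0.02 and 0.1, not called. Tubulin genes are close in sequence, so reads may be shared among them.

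**Figure D3:**
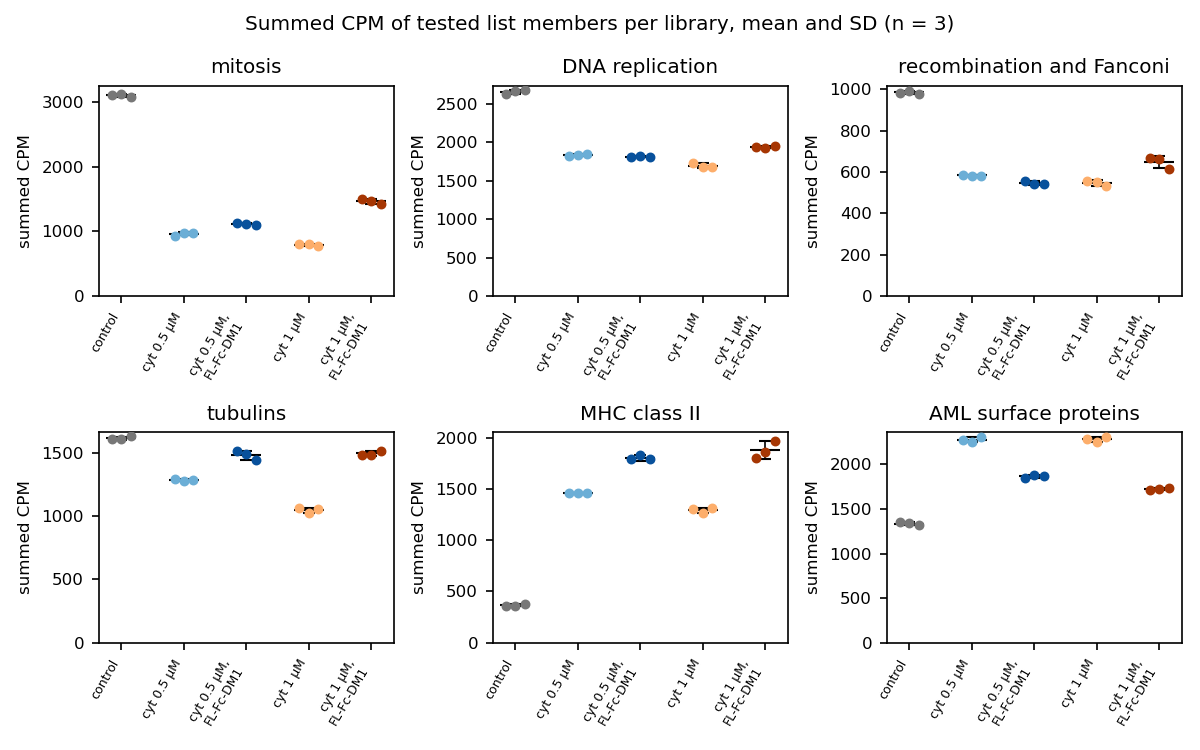
Summed CPM of the tested members of 6 gene lists in each library (points), with mean and SD (n = 3, bars), in the 5 groups. The mitosis sum is 1464 CPM after 1 µM and FL-Fc-DM1 against 1118 after 0.5 µM and FL-Fc-DM1, while the tubulin sums of those groups are 1495 and 1481.

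MHC class II genes, which present antigen on monocytes and are switched on by CIITA, were called positive in 4 of 14 tested (2.14% of all genes) and negative in 0, with a median of 0.30. HLA-DRA measured 236, 235 and 238 CPM on cytarabine and 385, 388 and 385 after FL-Fc-DM1 in the 0.5 µM arm. In the 1 µM arm it measured 167, 158 and 169.9 CPM on cytarabine and 383, 395 and 411 after FL-Fc-DM1, and 9.51, 9.38 and 12.1 CPM in the control libraries. The 1 µM libraries were lower without overlap among cells kept on cytarabine, and the doses overlapped among those given FL-Fc-DM1. HLA-DRA rose 1.63-fold after 0.5 µM and 2.4-fold after 1 µM, a difference of 0.56 ± 0.057 (edgeR adjusted p = 1.71e-06). CIITA took another route, with 108, 99.2 and 98.3 CPM on cytarabine and 75.8, 75.8 and 66.7 after FL-Fc-DM1 in the 0.5 µM arm, where it fell. It had 99.7, 101 and 98.8 CPM on cytarabine and 97.1, 91 and 97.5 after FL-Fc-DM1 in the 1 µM arm, where its change of -0.07 ± 0.054 was not called (edgeR adjusted p = 0.309). The difference was 0.42 ± 0.077 (edgeR adjusted p = 0.00156), and the FL-Fc-DM1 libraries after 0.5 µM were below all other treated libraries. CD74, the invariant chain, had 0.19 ± 0.048 (edgeR adjusted p = 0.0304), and its call was lost in 10 of 21 alternative analyses, 9 of them omissions of 1 library, with adjusted p up to 0.17. HLA-DRB1 had 0.56 ± 0.16 (edgeR adjusted p = 0.0499), and its call was lost in 14 of 21 alternative analyses, 11 of them omissions of 1 library, with adjusted p up to 0.156. HLA genes share sequence with one another and are uncertain singly. The count of 4 was 2 in a fit of the 4 treated groups alone and on omission of any of 9 single libraries (each one of cytarabine 0.5 µM and of FL-Fc-DM1 after 0.5 µM, replicates 1 and 2 of cytarabine 1 µM, and replicate 3 of FL-Fc-DM1 after 1 µM).

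Genes of monocytes and macrophages did not share a direction, with 2 positive and 3 negative of 33 tested (all genes, 2.14% and 0.931%) and a median of 0.042. LYZ, lysozyme, rose 1.79-fold after 0.5 µM and 2.07-fold after 1 µM, a difference of 0.21 ± 0.038 (edgeR adjusted p = 0.00126). CYBB, the catalytic subunit of the phagocyte NADPH oxidase, had 0.19 ± 0.048 (edgeR adjusted p = 0.0235), and its call was lost in 8 of 21 alternative analyses, 7 of them omissions of 1 library, with adjusted p up to 0.112. VCAN, the proteoglycan versican, went the other way, with 312, 299.5 and 307 CPM on cytarabine and 633, 627 and 632 after FL-Fc-DM1 in the 0.5 µM arm. It had 255, 233 and 242 CPM on cytarabine and 349.8, 328 and 344 after FL-Fc-DM1 in the 1 µM arm, and the 4 groups did not overlap. VCAN rose 2.06-fold after 0.5 µM and 1.4-fold after 1 µM, a difference of -0.56 ± 0.05 (edgeR adjusted p = 1.83e-07). ITGAX, the alpha chain of a complement-binding integrin, fell in both arms, with log2 changes of -0.62 ± 0.047 after 0.5 µM and -1.03 ± 0.051 after 1 µM and a difference of -0.42 ± 0.07 (edgeR adjusted p = 5.61e-04).

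Other positive genes had varied roles. CCR6, a chemokine receptor, measured 46.3, 50.4 and 46.3 CPM on cytarabine and 31.9, 36.7 and 32.6 after FL-Fc-DM1 in the 0.5 µM arm, where it fell. It measured 53, 45.3 and 51 CPM on cytarabine and 63.2, 65.1 and 63.2 after FL-Fc-DM1 in the 1 µM arm, where it rose. The FL-Fc-DM1 libraries were the lowest treated libraries after 0.5 µM and the highest after 1 µM, and the difference was 0.86 ± 0.11 (edgeR adjusted p = 3.55e-05). TOX, a high-mobility-group DNA-binding protein, fell after 0.5 µM, with a log2 change of -1.16 ± 0.18, had a change of 0.01 ± 0.18 after 1 µM that was not called, and gave a difference of 1.17 ± 0.25 (edgeR adjusted p = 0.00772). FPR3, a formyl peptide receptor, was listed at 0 in all control libraries. It read 2.07, 1.46 and 1.15 CPM on cytarabine and 4.68, 4.74 and 4.05 after FL-Fc-DM1 in the 0.5 µM arm and 1.97, 2.96 and 1.86 CPM on cytarabine and 15.3, 17.5 and 14.5 after FL-Fc-DM1 in the 1 µM arm. Its FL-Fc-DM1 libraries after 1 µM were above all others, its difference was 1.3 ± 0.34 (edgeR adjusted p = 0.0356), and its call was lost in 8 of 21 alternative analyses, 8 of them omissions of 1 library, with adjusted p up to 0.192.

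BMF, a BH3-only protein that promotes apoptosis, fell in both arms and less so after 1 µM (-0.97 and -0.55), a difference of 0.42 ± 0.062 (edgeR adjusted p = 1.60e-04). ITGA6, a laminin-binding integrin chain, fell after 0.5 µM (-0.14 ± 0.055) and rose after 1 µM (0.24 ± 0.05), with a difference of 0.39 ± 0.074 (edgeR adjusted p = 0.00241). CTSH, a lysosomal cysteine protease, had 0.51 ± 0.10 (edgeR adjusted p = 0.00457) and rose after 1 µM (0.59), with 0.08 after 0.5 µM. GRAMD2B rose after 1 µM, with a difference of 0.97 ± 0.19 (edgeR adjusted p = 0.0032). TMEM52B (0.85 ± 0.18, edgeR adjusted p = 0.00695) and ANKRD36C (0.84 ± 0.11, edgeR adjusted p = 4.47e-05), the latter a member of a repeated family, fell after 0.5 µM and rose after 1 µM. PHGDH, the first enzyme of serine synthesis, had 0.85 ± 0.18 (edgeR adjusted p = 0.00833), a call that ended in a fit of the 4 treated groups alone (adjusted p = 0.0595) and with limma voom (0.0512). SOX4, a transcription factor of immature cells, had 0.44 ± 0.10 (edgeR adjusted p = 0.0168). The SOX4 call ended without replicate 1 or 2 of cytarabine 0.5 µM (adjusted p = 0.0626 and 0.062) or replicate 1 or 2 of FL-Fc-DM1 after 0.5 µM (0.0516 and 0.0837). It also ended in a fit of the 4 treated groups alone (0.059). CTSG, a granule protease (0.32 ± 0.087, edgeR adjusted p = 0.0451), SCD, a fatty acid desaturase (0.19 ± 0.054, edgeR adjusted p = 0.0468), and NPC2, a lysosomal cholesterol carrier (0.27 ± 0.073, edgeR adjusted p = 0.0392), were near the threshold, and their calls were lost in 16, 15 and 13 of 21 alternative analyses.

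TNF and CXCL8, a pair of inflammatory cytokines, had negative differences. They were the called members among 22 NF-kappaB targets and inflammatory cytokines tested, 2 negative and 0 positive (all genes, 0.931% and 2.14%), with a list median of 0.031. TNF, the cytokine tumor necrosis factor, measured 17.1, 20.1 and 19.1 CPM on cytarabine and 39, 38.5 and 39.4 after FL-Fc-DM1 in the 0.5 µM arm. It measured 20.9, 25.2 and 21.1 CPM on cytarabine and 27.1, 27.2 and 27.8 after FL-Fc-DM1 in the 1 µM arm, and 49.4, 46.3 and 48.3 CPM in the control libraries. The 4 treated groups did not overlap, and the dose order turned: TNF was higher at 1 µM on cytarabine and lower at 1 µM after FL-Fc-DM1. TNF rose 2.08-fold after 0.5 µM and 1.22-fold after 1 µM, a difference of -0.76 ± 0.11 (edgeR adjusted p = 1.60e-04). CXCL8, the neutrophil chemokine, read 55.3, 52.5 and 59.1 CPM on cytarabine and 121, 119 and 122 after FL-Fc-DM1 in the 0.5 µM arm. It read 97.9, 88.2 and 83.9 CPM on cytarabine and 144, 139 and 156 after FL-Fc-DM1 in the 1 µM arm, and no treated groups overlapped. CXCL8 was higher at 1 µM both on cytarabine (0.7) and after FL-Fc-DM1 (0.28), with a difference of changes of -0.42 ± 0.094 (edgeR adjusted p = 0.0107).

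FOS, an immediate early transcription factor, was the called member of 25 MAPK feedback and immediate early genes tested. That list had 1 negative and 0 positive calls (all genes, 0.931% and 2.14%), with a median of -0.089. FOS had 36.3, 38.2 and 39.4 CPM on cytarabine and 73.7, 76.1 and 72 after FL-Fc-DM1 in the 0.5 µM arm. It had 32.8, 41.5 and 35.8 CPM on cytarabine and 52.4, 52.3 and 54.1 after FL-Fc-DM1 in the 1 µM arm. The cytarabine groups overlapped and the FL-Fc-DM1 groups did not, and the difference was -0.43 ± 0.10 (edgeR adjusted p = 0.0122). PIM1, a kinase induced by STAT5, fell in both arms (-0.6 after 0.5 µM and -0.83 after 1 µM), with a difference of -0.23 ± 0.052 (edgeR adjusted p = 0.0109). Of 15 STAT5 targets tested, 1 was negative and 1 positive (all genes, 0.931% and 2.14%). The positive one, SOCS1, an inhibitor of cytokine signaling named after its value was seen, had 0.93 ± 0.25 (edgeR adjusted p = 0.0363).

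Surface proteins of myeloid leukemia cells were called negative in 3 of 16 tested (0.931% of all genes) and positive in 0, with a median of -0.074 (-0.0133 without replicate 1 of FL-Fc-DM1 after 1 µM). CD33, a sialic acid-binding receptor used as an antibody target, read 115, 112 and 116 CPM on cytarabine and 149.8, 149 and 153 after FL-Fc-DM1 in the 0.5 µM arm. It read 115, 108 and 110.0 CPM on cytarabine and 100.3, 118 and 114 after FL-Fc-DM1 in the 1 µM arm. The FL-Fc-DM1 libraries after 0.5 µM were above all other treated libraries, which overlapped among themselves, and the difference was -0.41 ± 0.067 (edgeR adjusted p = 5.19e-04). CCR1, a chemokine receptor, had the same form, with changes of 0.34 after 0.5 µM and -0.05 after 1 µM and a difference of -0.39 ± 0.081 (edgeR adjusted p = 0.00567). LILRB4, an inhibitory receptor of monocytes, read 170.4, 168 and 169.7 CPM on cytarabine and 159.9, 169 and 164 after FL-Fc-DM1 in the 0.5 µM arm. It read 159, 157 and 161 CPM on cytarabine and 117, 123 and 117 after FL-Fc-DM1 in the 1 µM arm. Here the FL-Fc-DM1 libraries after 1 µM were below all other treated libraries, and the difference was -0.38 ± 0.055 (edgeR adjusted p = 1.30e-04).

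FLT3, the receptor whose ligand FL commonly abbreviates, measured 591, 576 and 594 CPM on cytarabine and 392, 384 and 383 after FL-Fc-DM1 in the 0.5 µM arm. It measured 548, 541 and 533 CPM on cytarabine and 329, 309.5 and 330.4 after FL-Fc-DM1 in the 1 µM arm, and 398, 403 and 386 CPM in the control libraries. In each arm the FL-Fc-DM1 libraries were lower without overlap, with changes of -0.6 ± 0.032 after 0.5 µM and -0.74 ± 0.033 after 1 µM. The difference between them was -0.14 ± 0.046 (edgeR adjusted p = 0.102), not called by edgeR, while DESeq2 called it (adjusted p = 0.0357). None of the 16 growth factor receptors tested was called by edgeR, which is close to the background share of 3.07% of all genes.

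Opposite changes with a negative difference included secreted and cytokine-related genes. SCG2, secretogranin II, measured 23.6, 21 and 25.1 CPM on cytarabine and 29.2, 30.9 and 29.1 after FL-Fc-DM1 in the 0.5 µM arm, where it rose. It measured 21.5, 17.3 and 19.3 CPM on cytarabine and 12.7, 12.8 and 13.2 after FL-Fc-DM1 in the 1 µM arm, where it fell, and 0.741, 0.286 and 0.47 CPM in the control libraries. The FL-Fc-DM1 libraries were the highest treated libraries after 0.5 µM and the lowest after 1 µM, and the difference was -0.95 ± 0.15 (edgeR adjusted p = 2.79e-04). IL7R, a chain of the interleukin 7 receptor, read 109, 108 and 113 CPM on cytarabine and 121, 118 and 125 after FL-Fc-DM1 in the 0.5 µM arm, where it rose. It read 101, 97 and 115 CPM on cytarabine and 84.6, 78.8 and 81.7 after FL-Fc-DM1 in the 1 µM arm, where it fell, and its FL-Fc-DM1 libraries after 1 µM were the lowest treated ones. Its difference was -0.5 ± 0.08 (edgeR adjusted p = 3.39e-04). INHBA, an activin subunit (-0.59 ± 0.13, edgeR adjusted p = 0.01), and AMER1, a regulator of WNT signaling (-0.94 ± 0.20, edgeR adjusted p = 0.00768), also rose after 0.5 µM and fell after 1 µM. So did MSANTD4 (-0.4 ± 0.089, edgeR adjusted p = 0.00964) and ATP13A1, an endoplasmic reticulum ATPase (-0.34 ± 0.071, edgeR adjusted p = 0.00559).

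**Figure D4:**
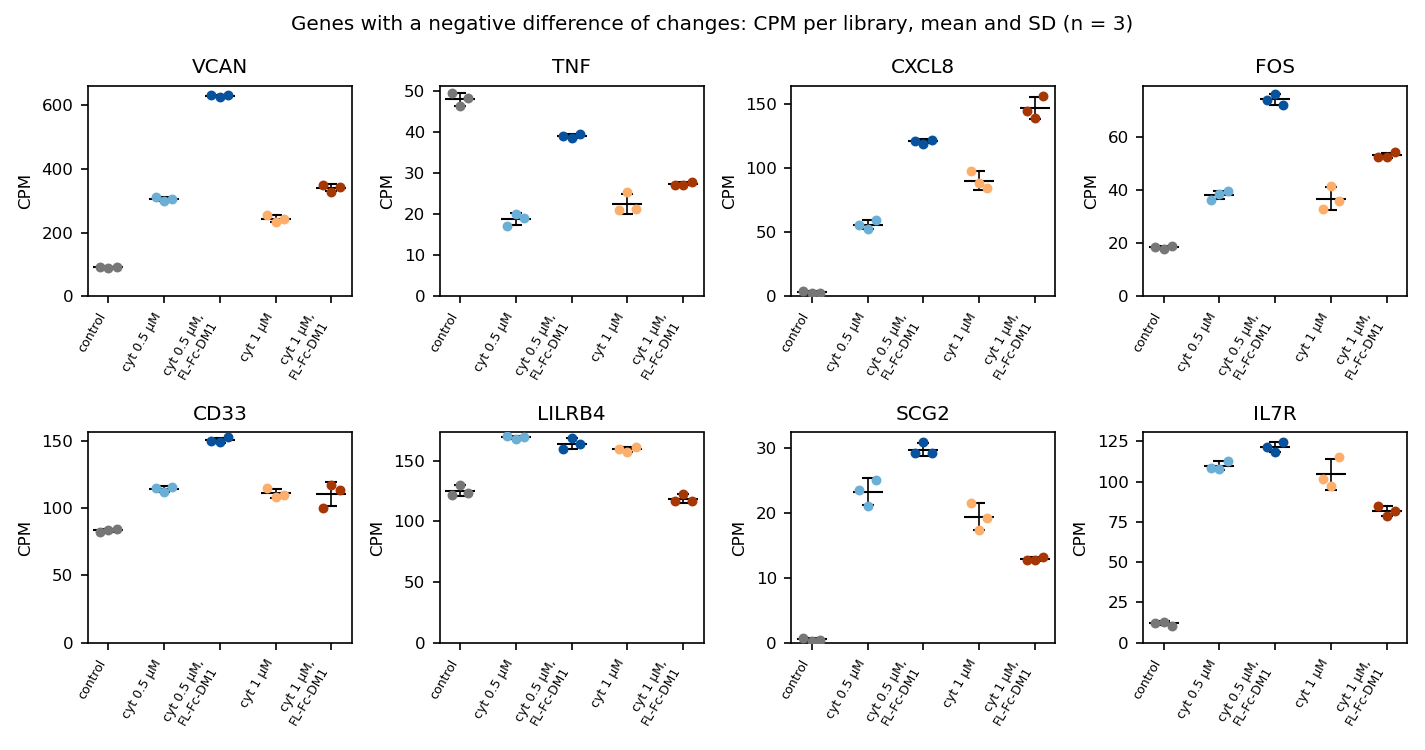
CPM per library (points) with mean and SD (n = 3, bars) in the 5 groups for 8 genes with a negative difference, each panel with its own axis from 0. VCAN, TNF, FOS and CD33 are highest among treated groups after 0.5 µM and FL-Fc-DM1, and LILRB4, SCG2 and IL7R are lowest after 1 µM and FL-Fc-DM1.

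GGT5, a gamma-glutamyltransferase family enzyme, had the largest negative difference among genes of at least 10 CPM. It measured 26.7, 19.2 and 20.0 CPM on cytarabine and 8.53, 8.23 and 8.04 after FL-Fc-DM1 in the 0.5 µM arm. It measured 12.5, 14 and 12.7 CPM on cytarabine and 2.47, 1.31 and 2.67 after FL-Fc-DM1 in the 1 µM arm, the lowest of all treated libraries. GGT5 fell 2.66-fold after 0.5 µM and 6.06-fold after 1 µM, a difference of -1.19 ± 0.25 (edgeR adjusted p = 0.0061) that limma voom did not call (adjusted p = 0.108). FCER2, the low-affinity IgE receptor (-0.61 ± 0.12, edgeR adjusted p = 0.00286), DHRS9, a retinol dehydrogenase (-0.6 ± 0.11, edgeR adjusted p = 0.00187), and MARS2, the mitochondrial methionyl-tRNA synthetase (-0.65 ± 0.10, edgeR adjusted p = 1.66e-04), rose after 0.5 µM, and their changes after 1 µM, 0.16, -0.07 and -0.05, were not called. PDXP, a pyridoxal phosphatase, had -1.1 ± 0.30 (edgeR adjusted p = 0.0382), and its call was lost in 11 of 21 alternative analyses, 9 of them omissions of 1 library, with adjusted p up to 0.118. ZNF790, a zinc finger gene, had -0.79 ± 0.21 (edgeR adjusted p = 0.0381), and its call was lost in 10 of 21 alternative analyses, 8 of them omissions of 1 library, with adjusted p up to 0.0991. GCH1, the first enzyme of tetrahydrobiopterin synthesis, had -0.59 ± 0.15 (edgeR adjusted p = 0.0339), and its call was lost in 7 of 21 alternative analyses, 6 of them omissions of 1 library, with adjusted p up to 0.0941.

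HMOX1, heme oxygenase, rose from a mean of 29.6 to 51.0 CPM in the 0.5 µM arm and from 144.6 to 196.9 CPM in the 1 µM arm. On the log2 scale the rise was smaller after 1 µM (0.79 and 0.45), with a difference of -0.34 ± 0.082 (edgeR adjusted p = 0.0188). Its call ended without replicate 1 or 3 of cytarabine 0.5 µM (adjusted p = 0.0528 and 0.0601) or replicate 3 of FL-Fc-DM1 after 0.5 µM (0.0676). BST2, an interferon-induced membrane protein, had -0.35 ± 0.062 (edgeR adjusted p = 0.00117). It was the called one of 39 interferon-stimulated genes, 1 negative and 0 positive (all genes, 0.931% and 2.14%), with a list median of -0.041. In the lysosome list 2 were positive and 2 negative of 28 (all genes, 2.14% and 0.931%). GLA, the alpha-galactosidase, had -0.34 ± 0.075 (edgeR adjusted p = 0.0103) and LIPA, the acid lipase, -0.21 ± 0.05 (edgeR adjusted p = 0.0143), a call that ended without replicate 2 of cytarabine 0.5 µM (adjusted p = 0.0537). CYP27A1, a sterol hydroxylase, had -0.25 ± 0.06 (edgeR adjusted p = 0.0189), a call that ended without replicate 1 of cytarabine 0.5 µM (adjusted p = 0.0685).

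Nearly all cytosolic ribosomal protein genes had small negative values. Of 79 tested, 4 were called negative (0.931% of all genes) and 0 positive, and 4 of 79 had a value above 0, with a median of -0.079. RPL7A, of the large subunit, had -0.21 ± 0.038 (edgeR adjusted p = 0.00118). The count of 4 was 15 without replicate 3 of FL-Fc-DM1 after 1 µM, 14 without the low-count filter, 11 with DESeq2 and 9 with the replicate number as a block. These genes have many processed copies in the genome, and reads may be shared with them. Nuclear genes of oxidative phosphorylation were called negative in 3 of 38 (0.931% of all genes) and positive in 0, with a median of -0.075. NDUFV1, of complex I, had -0.29 ± 0.07 (edgeR adjusted p = 0.0183), CYC1, of complex III, -0.27 ± 0.061 (edgeR adjusted p = 0.0128) and ATP5F1B, of the ATP synthase, -0.17 ± 0.043 (edgeR adjusted p = 0.0304). The CYC1 call ended without replicate 3 of cytarabine 0.5 µM (adjusted p = 0.0547), the NDUFV1 call without replicate 3 of FL-Fc-DM1 after 0.5 µM (0.0665) or replicate 2 of FL-Fc-DM1 after 1 µM (0.0521), and for ATP5F1B its call was lost in 6 of 21 alternative analyses, 6 of them omissions of 1 library, with adjusted p up to 0.0864.

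No call in the difference was made in several lists, namely 34 p53 targets, 30 MYC targets and ribosome biogenesis genes, 21 genes of the unfolded protein response, 16 heat shock genes, 23 cholesterol synthesis genes, 31 proteasome subunits, 20 aminoacyl-tRNA synthetases, 21 G1 cyclins and CDK inhibitors, 13 scavenger receptors and 15 genes of cytarabine transport and metabolism. Beside 3.07% of all genes called, 0 calls in lists of 13 to 34 genes is close to the background share. Some of these lists leaned to 1 side without a call. Of the 20 aminoacyl-tRNA synthetases 2 had a value above 0 (median -0.076), and of the 30 MYC targets and ribosome biogenesis genes 8 did (median -0.055). Among the 23 cholesterol synthesis genes 14 were above 0 (median 0.099). The SE of the difference was 0.12 at the median over all genes and 0.037 to 0.05 for the genes named next. Differences that are small beside the SE of a gene would not be detected. HSPA8, a constitutive heat shock chaperone, rose by 0.86 ± 0.026 after 0.5 µM and by 0.8 ± 0.026 after 1 µM, and its difference was -0.06 ± 0.037 (edgeR adjusted p = 0.469). CALR, an endoplasmic reticulum chaperone, rose by 0.54 ± 0.035 and 0.62 ± 0.035, with a difference of 0.08 ± 0.05 (edgeR adjusted p = 0.473). CDKN1A, the CDK inhibitor p21, had -0.05 ± 0.041 (edgeR adjusted p = 0.659), and MDM2, the ubiquitin ligase of p53, 0.00 ± 0.048 (edgeR adjusted p = 0.983), having fallen in both arms with changes of -0.22 ± 0.034 and -0.21 ± 0.034. SAMHD1, an enzyme that breaks down cytarabine triphosphate, rose by 0.5 ± 0.035 after 0.5 µM and 0.44 ± 0.035 after 1 µM, with a difference of -0.06 ± 0.049 (edgeR adjusted p = 0.638).

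**Figure D5:**
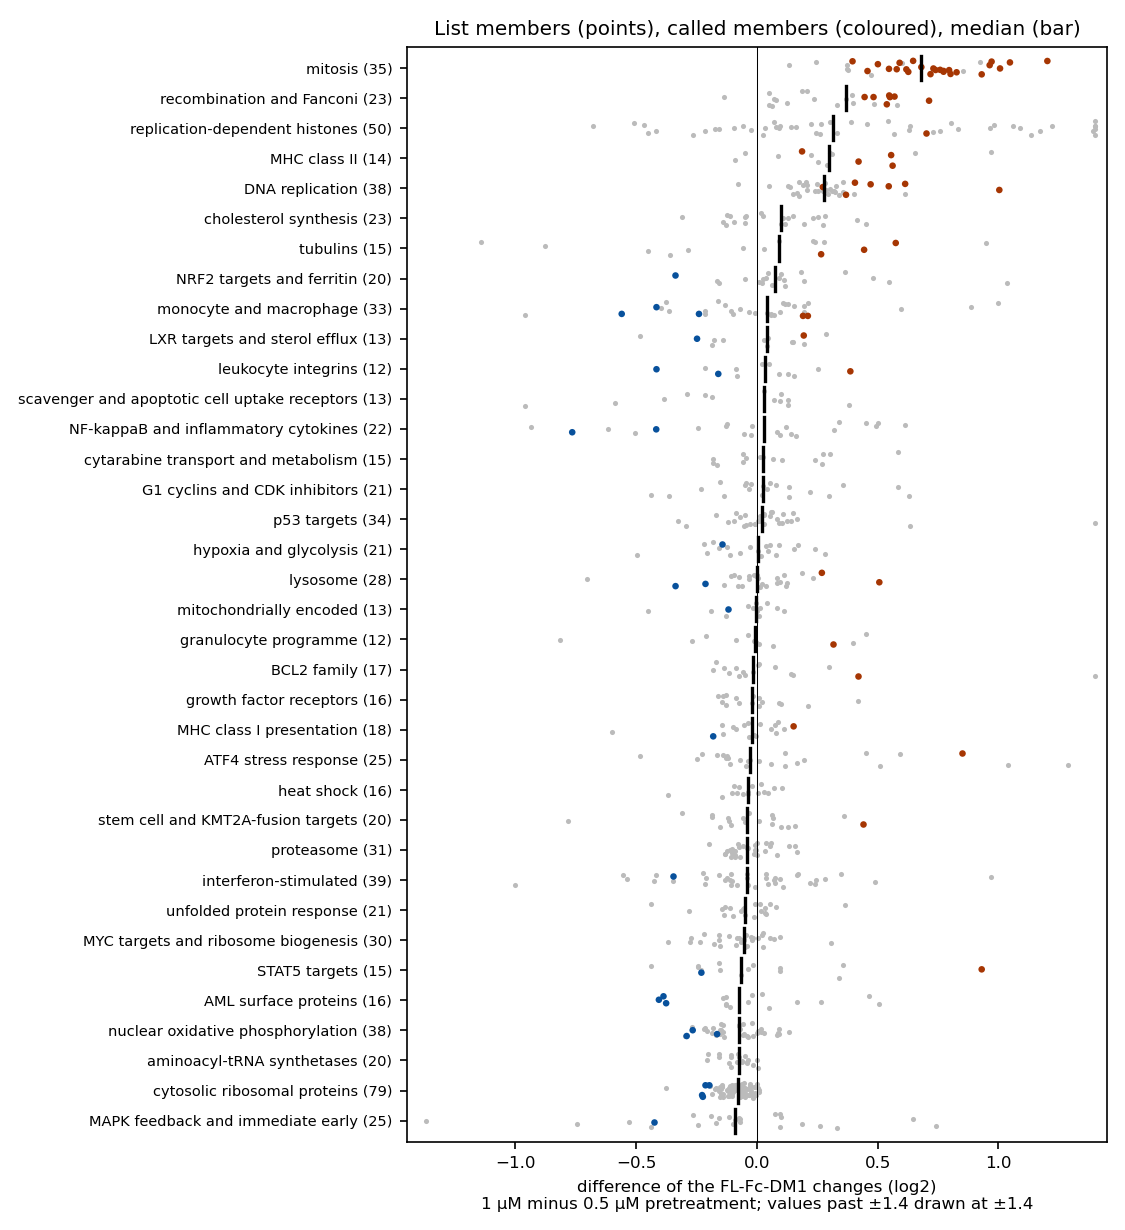
Difference of the FL-Fc-DM1 changes (log2, x axis) for the tested members of 36 gene lists (y axis, number tested in brackets). Grey points are members not called, coloured points are called, black bars are list medians: mitosis stands furthest right at 0.68, and the medians of most other lists lie close to 0.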

How the data were processed

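RNA was sequenced from Molm-13 cells in 15 libraries. The authors deposited 1 gene table with an estimated count and a TPM value (scaled for transcript length and depth) per gene and library. Of all counts in a library, zeros included, 9.63% to 11.3% were not whole. Tools listed, per the submitters' processing notes, were StringTie 1.3.1, fastp 0.18.0, DESeq2, edgeR and HISAT2. Genome build, annotation, counting tool and strand setting were not given in the sources used here.

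Counts were rounded and genes kept by filterByExpr (minimum count 10, minimum total 15). One edgeR 4.0.16 quasi-likelihood fit (R 4.3.3, TMM scaling, 5 groups, 10 residual degrees of freedom) gave every contrast, two-sided, with Benjamini-Hochberg adjustment over 12355 genes at 0.05. CPM were scaled by TMM, and TPM were not tested. Genes named were the 12 largest called differences of each sign at 10 CPM or more, the 6 largest opposite changes of each sign, FLT3, and up to 4 called members per list (2 of the highest level where none was called); 1 gene so selected is not reported here. The members, lists and comparisons were chosen with earlier results of these data known. Alternatives were DESeq2 size factors, no filter, DESeq2 1.42.0, limma 3.58.1 voom, treated groups alone, a replicate block and omission of each library. The fits were also run on simulated counts. Unlike the libraries here, these had the same spread setting in every group, so they cannot show how the fits behave with unequal spread.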

Additional observations from a re-analysis of the deposited data

Results flagged for a closer look

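The change with FL-Fc-DM1 differed between the arms, by the test of the difference itself, for 379 genes, and the values of those named are given here as log2 differences, 1 µM minus 0.5 µM pretreatment. Mitosis genes and their neighbors in the cycle had 1.33 for NEK2, 1.20 for CDC20, 1.14 for CKAP2L, 1.08 for HJURP, 1.05 for CCNB2, 1.01 for ASPM, 0.97 for DLGAP5, 0.96 for HMMR, 0.93 for CCNB1, 0.80 for TOP2A and 0.73 for CDCA2. The FAM72 copies had 1.02 for FAM72B and 0.98 for FAM72D. Replication, checkpoint and repair genes had 0.71 for CHEK1, 0.57 for BRCA2, 0.55 for GINS4, 0.48 for FANCD2, 0.47 for POLE, 0.45 for BRCA1, 0.41 for RFC3 and 0.27 for MCM3, and the histone gene 0.70 for H2AC11, with tubulins at 0.58 for TUBA1A, 0.44 for TUBA1B and 0.27 for TUBB. Antigen presentation genes had 0.56 for HLA-DRA, 0.56 for HLA-DRB1, 0.42 for CIITA, 0.19 for CD74, 0.15 for B2M and -0.18 for HLA-B. Other positive genes had 1.3 for FPR3, 1.17 for TOX, 0.97 for GRAMD2B, 0.86 for CCR6, 0.85 for TMEM52B, 0.85 for PHGDH, 0.84 for ANKRD36C, 0.51 for CTSH, 0.44 for SOX4, 0.42 for BMF, 0.39 for ITGA6, 0.32 for CTSG, 0.27 for NPC2, 0.21 for LYZ, 0.19 for SCD and 0.19 for CYBB. Negative differences among cytokines, receptors and surface proteins were -0.95 for SCG2, -0.76 for TNF, -0.61 for FCER2, -0.59 for INHBA, -0.56 for VCAN, -0.50 for IL7R, -0.42 for ITGAX, -0.42 for CXCL8, -0.41 for CD33, -0.39 for CCR1, -0.38 for LILRB4, -0.35 for BST2 and -0.16 for ITGAL. Among signaling genes and enzymes they were -1.19 for GGT5, -1.10 for PDXP, -0.94 for AMER1, -0.78 for ZNF790, -0.65 for MARS2, -0.60 for DHRS9, -0.59 for GCH1, -0.43 for FOS, -0.40 for MSANTD4, -0.34 for HMOX1, -0.34 for ATP13A1, -0.34 for GLA, -0.25 for CYP27A1, -0.23 for PIM1 and -0.21 for LIPA. Housekeeping genes had -0.29 for NDUFV1, -0.27 for CYC1, -0.17 for ATP5F1B, -0.22 for RPS14, -0.21 for RPL7A, -0.20 for RPS2, -0.14 for GAPDH and -0.12 for MT-CO1. Among those given only here, the calls of RPS14 and GAPDH were each lost in 10 of 21 alternative analyses (adjusted p up to 0.129 and 0.111), that of B2M in 8 (0.164), that of MT-CO1 in 6 (0.0722) and that of ITGAL in 5 (0.0974). Of the 84 called genes that the naming rule selected, 56 were called in all 21 alternative analyses, 28 were lost in at least 1 of them and 0 changed sign.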

How the results depend on the processing

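With 1 choice changed at a time, the count of genes called in the difference was 254 to 558, and the mitosis list had 21 to 28 positive calls of 35 and 0 negative. Without the low-count filter, 203 genes were negative and 71 reached 2-fold. In a fit of the 4 treated groups alone, 154 were positive, 108 were negative and 24 had opposite changes. With DESeq2 5 genes were lower at 1 µM after FL-Fc-DM1 and higher on cytarabine. For this last count, 9 in the analysis reported, omission of single libraries gave 1 to 14: it was 5 without control replicate 2, cytarabine 0.5 µM replicate 2, FL-Fc-DM1 after 0.5 µM replicate 3 or cytarabine 1 µM replicate 1, 3 and 1 without cytarabine 0.5 µM replicates 1 and 3, and 14 without FL-Fc-DM1 after 1 µM replicate 3. Omission of single libraries gave 151 to 308 positive calls, 82 to 186 negative, 11 to 31 of at least 2-fold and 18 to 41 opposite changes. Deviations from the group means were weakly correlated between libraries of the same replicate number (30 pairs, r from -0.062 to 0.080). Pairs of unlike number had r from -0.055 to 0.065. These values show no pairing by replicate number but cannot exclude one. A fit with the replicate number as a block called 438 genes, 299 positive and 139 negative. limma voom with a spread per group called 308 genes. Groups of 3 libraries and totals of 10.9 to 17 M limit the contrast to a median SE of 0.12. No B cell marker passed the filter in the fit of treated groups alone, which gives no median there.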

Other observations

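In the pathway and ontology terms given in the deposited table, counted after the calls were known and with terms of at least 20 tested genes, the terms with the highest shares of positive genes were those of chromosome segregation. In "mitotic sister chromatid segregation" 13 of 32 genes were positive (40.6%), and in "outer kinetochore" 8 of 20 (40.0%), with 0 negative in either, beside 2.14% positive over all genes tested. On the negative side, "phagocytosis" held 6 of 38 genes (15.8%) and "cytosolic small ribosomal subunit" 5 of 41 (12.2%), with 0 positive in either, beside 0.931% negative over all genes tested. These shares are descriptions and were not tested.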
